A study of Danio rerio with 24 samples.

Results

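The 8 zebrafish genes described here encode proteins that make or carry small RNAs or control their maturation. These are the Argonaute genes ago1, ago2, ago3a, ago3b and ago4, the nuclease genes dicer1 and drosha, and the RNA-binding protein gene lin28b. They are 8 of the 23219 genes in the count table, found by their symbols, and all 8 were among the 22340 genes with enough reads to test. They were chosen by measured values of these same libraries, namely their difference between genotypes and their change from 29 to 48 hours post fertilisation (hpf). For those contrasts the values are therefore given as a description, with no test.

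The libraries came from whole zebrafish embryos, either wild type or mutant through the mother for eevs (Meevs). The gene eevs encodes the first enzyme in the synthesis of gadusol, a UVB-absorbing compound of fish. At 24 hpf the embryos received ultraviolet B (UVB), a dose that the labels state as 450 J without naming an area, or a mock treatment, and they were kept in the dark before and after. They were collected 5 h later, at 29 hpf, or 24 h later, at 48 hpf, which gave 8 groups of 3 libraries each. The samples called mock here are titled untreated. The labels name no strain, no eevs allele and no paternal genotype, and do not say whether the 3 libraries of a group came from separate clutches. The p-values thus measure the spread between these libraries, which may be technical.

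Argonaute proteins bind microRNAs and use them to find messenger RNAs, which are then repressed or degraded. Drosha cuts the primary microRNA transcript in the nucleus, and Dicer cuts the resulting hairpin in the cytoplasm. Lin28 proteins bind the precursor of the microRNA let-7 and hold back its maturation, and they are known for marking early, undifferentiated stages. The libraries were selected for polyadenylated RNA, so the values are messenger RNA levels of these genes, and mature microRNAs were not analysed here.

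Total counts per library ran from 22395870 to 44691629. Levels are given as CPM, a gene's counts per 1000000 counts of its library. On the log2 CPM of all tested genes, principal component 1 took up 59% and component 2 18% of the variance. In each group the library farthest from the mean of its other replicates on these components was found. The 4 of them with the largest distances are said here to stand apart, a number set by this rule. They were replicate 3 of wild type UVB and of Meevs mock at 29 hpf. At 48 hpf they were replicate 1 of wild type UVB and replicate 3 of Meevs UVB. Replicate 1 of Meevs mock at 29 hpf (distance 19.7) and replicate 2 of Meevs UVB at 48 hpf (16.3) were not taken. Both lay farther out than replicate 3 of wild type UVB at 29 hpf (15.6). All wild type libraries carry 1 library series number and all Meevs libraries another, so genotype and library series cannot be told apart. The targeted gene eevs had 2 to 84 counts per library. At 29 hpf it read 0.211 ± 0.102 CPM in Meevs mock embryos and 0.216 ± 0.0355 CPM in wild type mock embryos (mean ± SD, n = 3). In UVB embryos of that stage it was 2.22 ± 0.276 CPM in Meevs and 0.289 ± 0.0753 CPM in wild type. At 48 hpf it was 2.53 ± 0.885 against 0.712 ± 0.0759 CPM in mock and 0.663 ± 0.158 against 0.402 ± 0.0793 CPM in UVB embryos. The level of eevs thus gave no check of the genotype labels, since it was not lower in Meevs beyond the SD in any of these groups.

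In the GRCz11 build, ago1 (ENSDARG00000092644) lies on chromosome 16 from 51084472 to 51151993. The gene ago3a (ENSDARG00000059888) lies beside it, from 51001957 to 51072406. Both are on the minus strand, 12065 bases apart, with 0 annotated genes between them. Chromosome 19 holds 3 further Argonaute genes: ago3b (ENSDARG00000063079) from 10661520 to 10686713, ago2 (ENSDARG00000061268) from 41479990 to 41499645 and ago4 (ENSDARG00000100854) from 47800550 to 47832853. The gene dicer1 (ENSDARG00000001129) lies on chromosome 17 from 19419989 to 19466319, drosha (ENSDARG00000055563) on chromosome 12 from 13344896 to 13390841 and lin28b (ENSDARG00000052511) on chromosome 20 from 47491247 to 47531869. The Argonaute genes are related in sequence, and the treatment of reads matching several of them was not given in the sources used here.

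All 8 genes had a lower estimate in Meevs than in wild type embryos, in mock and in UVB embryos and at both stages. The median log2 difference of the 8 genes (Meevs minus wild type) was -1.45 in mock and -0.93 in UVB embryos at 29 hpf, and -1.38 and -1.21 at 48 hpf. Over all tested genes the same median was 0.03, 0.04, 0.02 and 0.01. At 29 hpf every Meevs library was below every wild type library for 7 of the 8 genes in mock embryos, where 25.1% of all tested genes did the same, and for 8 of 8 in UVB embryos, against 26.3%. At 48 hpf the counts were again 7 of 8 in mock embryos, against 30.5% of all genes, and 8 of 8 in UVB embryos, against 29.9%. The members were chosen on these differences, so nothing is read from the counts. The exception in mock embryos was drosha. In whole embryos, fewer cells of a type and less RNA per cell cannot be told apart.

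**Figure D1:**
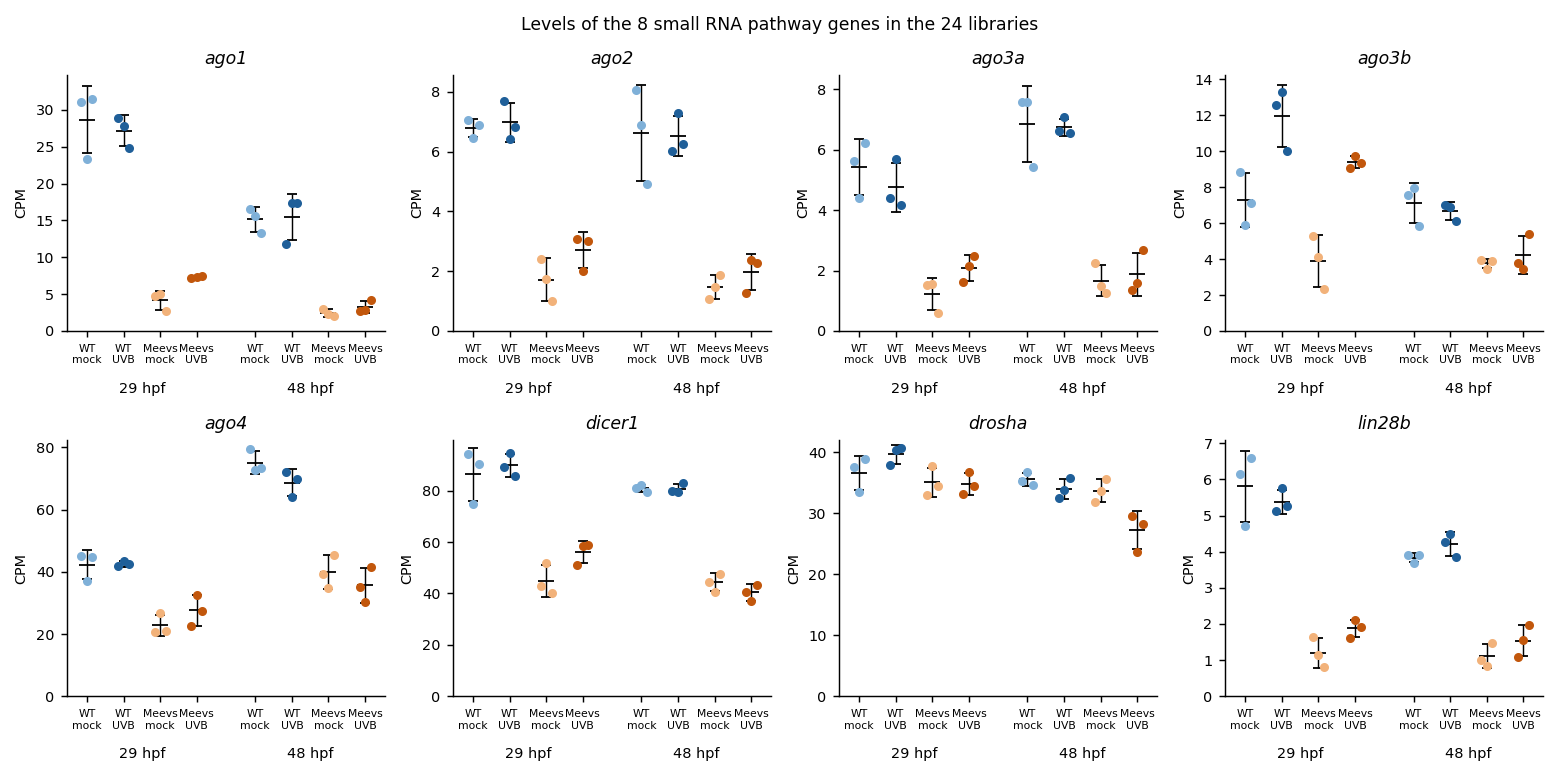
Level of each gene in every library, in CPM (vertical axis from 0), by genotype, treatment and stage; each point is 1 library, and the bar is the mean ± SD of 3 libraries. The Meevs libraries of ago1 lie between 2.04 and 7.4 CPM and those of wild type between 11.8 and 31.5 CPM, while drosha lies between 23.7 and 40.6 CPM in all libraries.

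The Argonaute gene ago1 had the widest gap of the 8. In wild type mock embryos at 29 hpf the 3 libraries read 31.1, 23.4 and 31.5 CPM, and in Meevs mock embryos 4.7, 5.06 and 2.66 CPM. At 48 hpf wild type mock libraries read 16.5, 15.6 and 13.3 CPM and Meevs mock libraries 3.03, 2.25 and 2.04 CPM. The genotypes did not overlap at either stage. The log2 difference was -2.78 ± 0.18 (SE) at 29 hpf and -2.64 ± 0.20 at 48 hpf, that is 6.86-fold and 6.22-fold lower in Meevs. Among UVB embryos it was smaller, -1.89 ± 0.17 at 29 hpf and -2.24 ± 0.19 at 48 hpf. Ordered by mean level, the 8 groups formed 4 sets that did not overlap. The lowest held Meevs at 48 hpf and Meevs mock at 29 hpf, then came Meevs UVB at 29 hpf alone, then wild type at 48 hpf, and wild type at 29 hpf was highest. Groups inside a set overlapped with their neighbours in the order.

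Among the Argonaute genes ago2 and ago3a came next, 3.88-fold and 4.35-fold lower in Meevs mock embryos at 29 hpf. In that comparison lin28b, described below, was 4.78-fold lower. The mammalian counterpart of ago2 encodes the Argonaute that can itself cut a target RNA. In zebrafish ago2 read 7.04, 6.46 and 6.88 CPM in wild type mock libraries at 29 hpf and 2.41, 1.75 and 1.0 CPM in Meevs mock libraries. Every one of the 12 Meevs libraries was below every wild type library of ago2, and no other gap separated its groups. The log2 difference of ago2 in mock embryos was -1.96 ± 0.24 at 29 hpf and -2.19 ± 0.23 at 48 hpf, and in UVB embryos it was -1.39 ± 0.21 and -1.72 ± 0.23. The gene ago3a, one of a pair of zebrafish genes related to mammalian AGO3, read 5.64, 4.41 and 6.24 CPM in wild type mock libraries at 29 hpf. In Meevs mock libraries of that stage it read 1.51, 1.56 and 0.602 CPM, the last from only 12 counts. Its log2 difference in mock embryos was -2.12 ± 0.27 at 29 hpf and -2.05 ± 0.24 at 48 hpf, and in UVB embryos -1.18 ± 0.24 and -1.81 ± 0.24.

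The second gene of that pair, ago3b, differed less between genotypes. Wild type mock libraries at 29 hpf read 8.87, 5.91 and 7.11 CPM and Meevs mock libraries 5.26, 4.09 and 2.36 CPM. The log2 difference was -0.89 ± 0.20 at 29 hpf and -0.93 ± 0.19 at 48 hpf in mock embryos, and -0.34 ± 0.17 and -0.65 ± 0.19 in UVB embryos. The order of its groups did not follow genotype alone. Meevs UVB embryos at 29 hpf, at 9.39 ± 0.322 CPM (mean ± SD, n = 3), stood above wild type mock embryos of both stages and wild type UVB embryos at 48 hpf without overlap. The gene ago4 read 45.1, 37.0 and 44.8 CPM in wild type mock libraries at 29 hpf and 20.8, 26.8 and 21.0 CPM in Meevs mock libraries. Its log2 difference was -0.89 ± 0.12 and -0.92 ± 0.12 in mock embryos at the earlier and later stage, and -0.62 ± 0.12 and -0.94 ± 0.12 in UVB embryos.

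The 2 nuclease genes differed from each other. Wild type mock libraries at 29 hpf read 94.4, 74.7 and 90.2 CPM of dicer1, and Meevs mock libraries 42.9, 51.8 and 40.1 CPM. All 12 Meevs libraries of dicer1 were below all wild type libraries, with log2 differences of -0.94 ± 0.09 and -0.87 ± 0.09 in mock embryos at 29 and 48 hpf, and -0.68 ± 0.09 and -1.0 ± 0.09 in UVB embryos. For drosha, wild type mock libraries at 29 hpf read 37.6, 33.4 and 38.8 CPM and Meevs mock libraries 32.9, 37.7 and 34.5 CPM. These overlapped, and the log2 differences in mock embryos were -0.06 ± 0.08 and -0.08 ± 0.08. In UVB embryos the estimates for drosha were -0.18 ± 0.08 at 29 hpf and -0.32 ± 0.08 at 48 hpf. Only Meevs UVB embryos at 48 hpf, at 27.2 ± 3.06 CPM (mean ± SD, n = 3), lay apart from the next group in the order for drosha.

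The let-7 regulator gene lin28b had few reads in Meevs, between 16 and 84 counts per library. Wild type mock libraries at 29 hpf read 6.15, 4.71 and 6.58 CPM and Meevs mock libraries 1.64, 1.15 and 0.803 CPM. At 48 hpf wild type mock libraries read 3.9, 3.69 and 3.9 CPM and Meevs mock libraries 1.01, 0.843 and 1.48 CPM. The groups of lin28b fell into 3 sets without overlap: all Meevs groups, then wild type at 48 hpf, then wild type at 29 hpf. The log2 difference was -2.26 ± 0.21 and -1.83 ± 0.21 in mock embryos at 29 and 48 hpf, and -1.51 ± 0.19 and -1.43 ± 0.20 in UVB embryos.

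**Figure D2:**
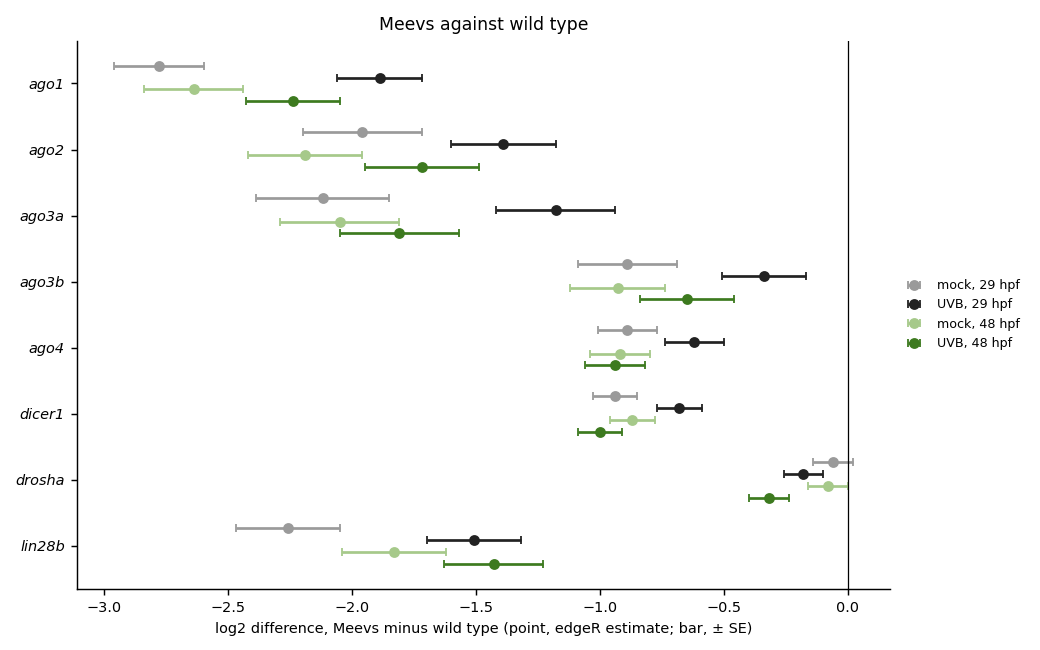
Log2 difference between Meevs and wild type embryos (horizontal axis; negative is lower in Meevs) for the 8 genes, with the edgeR estimate as a point and its SE as a bar, for mock and UVB embryos at 29 and 48 hpf. The points of ago1 lie between -2.78 and -1.89 and those of drosha between -0.32 and -0.06.

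One library weighed on the mock differences at 29 hpf. Replicate 3 of Meevs mock, which stood apart on the principal components, was the lowest of its group for 6 of the 8 genes, with a median deviation of -0.53 on the log2 scale from the group mean. Without it the log2 difference of ago1 was -2.55 ± 0.19, that of ago2 -1.70 ± 0.25, that of ago3a -1.81 ± 0.27 and that of lin28b -2.05 ± 0.23. In wild type mock embryos at 29 hpf replicate 2 was the lowest library for 8 of 8 genes, by a median of -0.24.

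The make-up of the Argonaute messages is given as a description, since it follows from the genotype and stage values that chose the genes. The 5 Argonaute genes summed to 90.5 ± 11.5 CPM in wild type mock embryos at 29 hpf and 33.9 ± 5.89 CPM in Meevs mock embryos (mean ± SD, n = 3 each). At 48 hpf the sums were 111 ± 8.17 and 49.2 ± 5.65 CPM. Of the counts of these 5 genes, ago1 held 31.6 ± 1.20% in wild type mock embryos at 29 hpf and 12 ± 2.09% in Meevs mock embryos. At 48 hpf it held 13.6 ± 0.585% and 5.01 ± 1.18%. The share of ago4 was 46.8 ± 1.0% in wild type mock embryos and 68.1 ± 8.0% in Meevs mock embryos at 29 hpf, and 67.8 ± 2.99% and 80.9 ± 2.22% at 48 hpf. Shares are not corrected for transcript length, so each is compared only with the same gene in another group.

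Genes beside ago1 and lin28b were called in both directions. Of ago1's 10 nearest tested genes, 5 on each side, 9 were not among the 8 genes described here. Their log2 differences between genotypes in mock embryos at 29 hpf ran from -0.53 to 1.01, with a median of 0.23. Of these 9, 5 were higher in Meevs and 1 lower, at an edgeR adjusted p under 0.05 over all tested genes. The nearest, dhdds, which encodes a subunit of the enzyme that makes dolichol chains, lies 2.92 kb away and was higher by 0.74 ± 0.12 (edgeR adjusted p = 9.63e-06). The 10 genes nearest to lin28b ran from -0.89 to 1.20 with a median of 0.12, and 3 were higher and 1 lower. Its nearest neighbour, the vesicle transport gene rab10, 19.7 kb away, had a log2 difference of -0.14 ± 0.06 (edgeR adjusted p = 0.0524). Among all tested genes 24.5% were higher and 23.2% lower in this comparison. In UVB embryos at 29 hpf 5 of the 9 genes around ago1 were higher and 4 lower, and at 48 hpf 4 were higher and 2 lower in mock embryos and again in UVB embryos. Around lin28b 2 of 10 were higher and 0 lower in UVB embryos at 29 hpf, where the 10 ran from -0.53 to 0.47, 2 were higher and 2 lower in mock embryos at 48 hpf, and 1 was higher and 4 lower in UVB embryos at 48 hpf, with a median of -0.17. Of all tested genes 27.3% were higher and 23% lower in UVB embryos at 29 hpf. At 48 hpf 26.5% were higher and 26.2% lower in mock embryos, and 28.5% and 27.4% in UVB embryos.

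**Figure D3:**
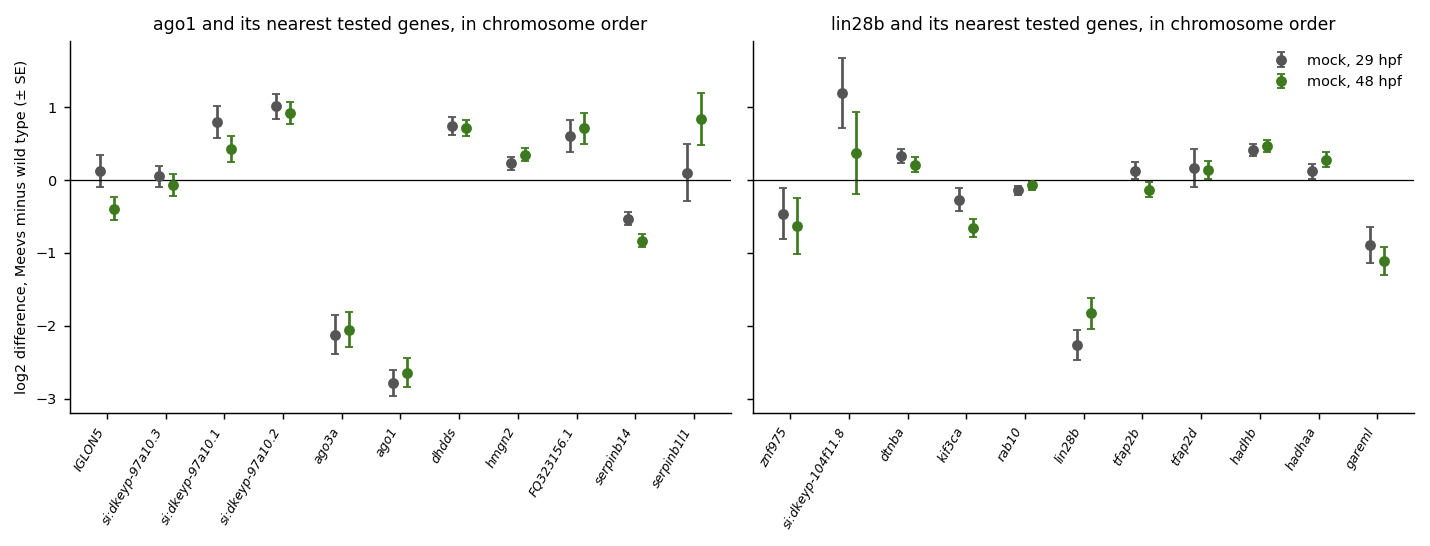
Log2 difference between Meevs and wild type mock embryos (vertical axis; bar, SE of the edgeR estimate) for ago1, lin28b and the 5 nearest tested genes on each side, placed in chromosome order and not to distance, at 29 and 48 hpf. ago1 and ago3a lie at -2.78 and -2.12 at 29 hpf, and the other genes around ago1 between -0.53 and 1.01.

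Other genes of the pathway were counted in lists by role. The lists were drawn up with earlier results of these data known, so their counts and medians are a description. The gene trim71 is in both the list of Argonaute partners and that around Lin28 and let-7. Of 20 measured partners of Argonaute, 10 were lower and 3 higher in Meevs mock embryos at 29 hpf. Of all tested genes 23.2% were lower and 24.5% higher. At 48 hpf 10 partners were lower and 3 higher, where 26.2% of all tested genes were lower and 26.5% higher. The lower ones at 29 hpf included 3 genes of the TNRC6 family, scaffolds that link Argonaute to the deadenylation machinery. These were tnrc6a (-0.72 ± 0.07, edgeR adjusted p = 5.87e-09), tnrc6c1 (-0.88 ± 0.10, edgeR adjusted p = 8.57e-08) and tnrc6c2 (-0.93 ± 0.10, edgeR adjusted p = 3.06e-08). The importin gene ipo8 was higher by 0.47 ± 0.08 (edgeR adjusted p = 2.1e-05). The median log2 difference of the partners was -0.16, against 0.03 over all genes.

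Of 11 measured genes around microRNA processing, 5 were lower and 3 higher in Meevs mock embryos at 29 hpf, with a median of 0.14. This list holds cofactors of Drosha and Dicer, and also RNA-editing, cap-binding and other genes. Of all tested genes 23.2% were lower and 24.5% higher in this comparison, with a median of 0.03. The Drosha cofactor gene dgcr8 was lower by a log2 difference of -0.24 ± 0.06 (edgeR adjusted p = 0.00123), and prkra, a Dicer partner, by -0.56 ± 0.09 (edgeR adjusted p = 2.74e-05). The RNA-editing gene adarb1b was lower by -1.42 ± 0.22 (edgeR adjusted p = 7.48e-06), and the cap-binding gene ncbp2 was higher by 0.39 ± 0.09 (edgeR adjusted p = 0.000926). Also higher were ran (0.31 ± 0.09, edgeR adjusted p = 0.00462) and srrt (0.19 ± 0.07, edgeR adjusted p = 0.0205). At 48 hpf 6 of the 11 were higher and 4 lower in mock embryos, with a median of 0.28, where 26.5% of all genes were higher and 26.2% lower. In UVB embryos 5 were higher and 2 lower at 29 hpf, and 5 higher and 4 lower at 48 hpf. Of all genes 27.3% were higher and 23% lower in UVB embryos at 29 hpf, and 28.5% and 27.4% at 48 hpf. Of 29 measured genes of deadenylation and decay, 13 were lower and 3 higher in Meevs mock embryos at 29 hpf. Among the lower ones was the decapping factor gene edc3 (-0.71 ± 0.06, edgeR adjusted p = 3.91e-09), and among the higher ones cnot9 (0.40 ± 0.07, edgeR adjusted p = 1.87e-05). The median of this list was -0.13. At 48 hpf 12 of its genes were lower and 7 higher in mock embryos, with a median of -0.09. In UVB embryos 12 were lower and 6 higher at 29 hpf, and 11 lower and 6 higher at 48 hpf. Of 16 measured genes of the PIWI pathway and germ cells, where PIWI proteins use another class of small RNA, 1 was higher, tdrkh (0.45 ± 0.09, edgeR adjusted p = 0.000131).

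Of 27 measured genes around Lin28 and let-7, 16 were lower and 2 higher in Meevs mock embryos at 29 hpf, with a median of -0.49. Of all tested genes 23.2% were lower and 24.5% higher, with a median of 0.03. The list holds genes known in other vertebrates as let-7 or Lin28 targets. Among the lower ones were hmga2, a chromatin protein gene (-1.31 ± 0.10, edgeR adjusted p = 6.18e-10), igf2bp1, which encodes an mRNA-binding protein (-0.85 ± 0.09, edgeR adjusted p = 2.1e-08), and the cell cycle kinase gene cdk6 (-1.42 ± 0.15, edgeR adjusted p = 3.16e-08). The Myc genes mycla (0.47 ± 0.08, edgeR adjusted p = 4.45e-05) and myca (0.28 ± 0.07, edgeR adjusted p = 0.00236) were the 2 higher ones. In UVB embryos 17 were lower and 5 higher at 29 hpf, where 23% of all genes were lower and 27.3% higher. At 48 hpf 15 were lower and 4 higher, where 27.4% were lower and 28.5% higher.

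Markers of tissues were also counted, in Meevs against wild type mock embryos at 29 hpf, where 24.5% of all tested genes were higher and 23.2% lower. Counts are of gene identifiers, and the symbols myhz1.1 (muscle), rrm2 (proliferation) and her4.2 (neural progenitors) each have 2. Of 14 measured muscle markers 10 were higher and 1 lower in Meevs mock embryos at 29 hpf, and their summed level was 33500 to 42400 CPM against 21600 to 25800 CPM in wild type. Of 10 epidermis markers 8 were higher, with sums of 27400 to 29400 against 19400 to 21100 CPM. Of 18 measured proliferation markers 10 were higher and 1 lower, with sums of 6980 to 7420 against 6300 to 6410 CPM. Of 20 neural progenitor markers 6 were higher and 7 lower, and of 13 neuron markers 7 were higher and 3 lower. Of 11 blood markers 5 were higher, and of 9 yolk and liver markers 3 were higher and 1 lower. In mock embryos at 48 hpf 26.5% of all genes were higher and 26.2% lower. There muscle markers were 7 higher and 3 lower, epidermis 5 and 0, and proliferation 11 and 1. Neural progenitor markers were 3 higher and 6 lower, neuron 5 and 5, blood 1 and 3, and yolk and liver 5 and 1. No marker of these lists read 0 in a whole group. Their part in the differences of the 8 genes was not tested.

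The UVB effect was not among the contrasts that chose the genes, and it was tested with edgeR over all 22340 genes. The effect within a genotype and stage is not a sum or difference of the contrasts that chose the genes, but the mock and UVB libraries all entered that choice. The tests on the 8 genes are thus not independent of the choice, and shares over all genes stand beside them as a description. In wild type embryos at 5 h after UVB, 1 of the 8 genes, ago3b, rose, where 6.67% of all genes rose and 6.06% fell. The ago3b libraries read 8.87, 5.91 and 7.11 CPM in mock embryos and 12.6, 13.3 and 10 CPM in UVB embryos, without overlap. The log2 difference (UVB minus mock) was 0.71 ± 0.17 (edgeR adjusted p = 0.00739), and without replicate 2 of the mock group it was 0.57 ± 0.19 (edgeR adjusted p = 0.055). The other 7 genes had estimates between -0.20 and 0.12. That of ago1 was -0.08, with a 95% interval of -0.37 to 0.22, and that of lin28b -0.11, with an interval of -0.44 to 0.22.

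In Meevs embryos at 5 h, 4 of the 8 genes rose, where 19.1% of all genes rose and 15.3% fell. The median log2 difference of the 8 genes was 0.62, against 0.05 over all genes, and 0.34 against 0.01 without replicate 3 of the mock group. The low Meevs mock values entered the choice of the genes, so nothing is read from this count or median. By DESeq2 6 of the 8 rose, where 4354 of all genes rose and 3461 fell. The largest rise was that of ago3b, from 5.26, 4.09 and 2.36 CPM in mock to 9.09, 9.73 and 9.35 CPM in UVB libraries (1.25 ± 0.20, edgeR adjusted p = 1.48e-05). The level of ago1 went from 4.7, 5.06 and 2.66 CPM to 7.14, 7.38 and 7.4 CPM (0.81 ± 0.20, edgeR adjusted p = 0.00226). For both, all UVB libraries were above all mock libraries. Replicate 3 of the mock group was the lowest library of both, and without it the values were 0.95 ± 0.19 (edgeR adjusted p = 0.000329) for ago3b and 0.53 ± 0.20 (edgeR adjusted p = 0.0443) for ago1.

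The other rises in Meevs at 5 h, of dicer1 and lin28b, did not pass without that library. For dicer1 the mock libraries read 42.9, 51.8 and 40.1 CPM and the UVB libraries 51.2, 58.4 and 58.7 CPM (0.32 ± 0.09, edgeR adjusted p = 0.00719). For lin28b they read 1.64, 1.15 and 0.803 CPM and 1.62, 2.1 and 1.91 CPM (0.64 ± 0.24, edgeR adjusted p = 0.0406). The groups overlapped in both genes. Without replicate 3 of the mock group the values were 0.19 ± 0.10 (edgeR adjusted p = 0.141) for dicer1 and 0.38 ± 0.25 (edgeR adjusted p = 0.278) for lin28b. Without UVB replicate 2 they were 0.24 ± 0.10 (edgeR adjusted p = 0.0868) and 0.49 ± 0.28 (edgeR adjusted p = 0.202). The call on lin28b was also lost without UVB replicate 3 (0.63 ± 0.27, edgeR adjusted p = 0.0739) and without mock replicate 2 (0.60 ± 0.28, edgeR adjusted p = 0.107). The genes ago2 (0.60 ± 0.26, edgeR adjusted p = 0.0802) and ago3a (0.74 ± 0.30, edgeR adjusted p = 0.0579) did not pass, nor did ago4 (0.28 ± 0.13, edgeR adjusted p = 0.0943). By DESeq2 ago2 (0.62, adjusted p = 0.0384) and ago3a (0.75, adjusted p = 0.0231) passed. Each of these 3 passed with either of 2 single libraries left out, ago2 at 0.93 ± 0.30 without mock replicate 1 (edgeR adjusted p = 0.0192). Without mock replicate 3 the estimates were 0.29 ± 0.27 for ago2 (edgeR adjusted p = 0.454), 0.38 ± 0.30 for ago3a (edgeR adjusted p = 0.367) and 0.17 ± 0.14 for ago4 (edgeR adjusted p = 0.411). The estimate for drosha was -0.01 ± 0.08. Epidermis markers were lower after UVB in Meevs at this time, 7 of 10 by edgeR, with summed levels of 19100 to 20500 CPM against 27400 to 29400 CPM in mock embryos. Their part in these values was not tested.

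**Figure D4:**
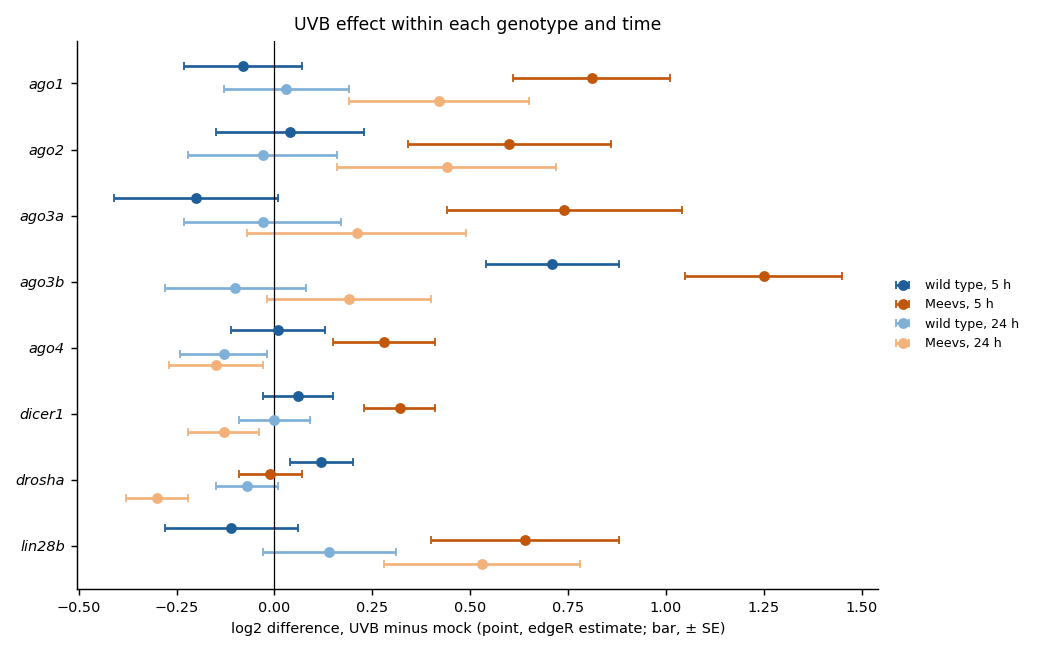
Log2 difference between UVB and mock embryos (horizontal axis; positive is higher after UVB) for the 8 genes in each genotype, 5 h and 24 h after exposure, with the edgeR estimate as a point and its SE as a bar. The ago3b points at 5 h lie at 0.71 in wild type and 1.25 in Meevs, and drosha in Meevs at 24 h lies at -0.30.

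At 24 h after UVB, 0 of the 8 genes passed in wild type by edgeR, 0 by DESeq2 and 0 at an unadjusted p under 0.05, where 1.74% of all genes rose and 0.506% fell. Their estimates lay between -0.13 and 0.14. In Meevs 1 of the 8, drosha, fell, where 8.84% of all genes fell and 11.5% rose. The drosha libraries read 31.8, 33.6 and 35.6 CPM in mock and 29.6, 23.7 and 28.3 CPM in UVB embryos, without overlap (-0.30 ± 0.08, edgeR adjusted p = 0.00657). Of the 13 neuron markers 9 fell in the same comparison, with a median log2 difference of -0.37 and summed levels of 2240 to 2510 CPM against 3090 to 3180 CPM in mock embryos. Their part in the value for drosha was not tested. The estimates of ago1 (0.42 ± 0.23, edgeR adjusted p = 0.217) and lin28b (0.53 ± 0.25, edgeR adjusted p = 0.13) did not pass. The share of ago3b in the Argonaute counts, 8.03 ± 0.916% in wild type mock and 12.8 ± 1.25% in wild type UVB embryos at 5 h, was 6.42 ± 0.748% and 6.42 ± 0.569% at 24 h. In Meevs it was 11.4 ± 3.41% and 19.2 ± 1.44% at 5 h, then 7.67 ± 0.509% and 8.88 ± 0.669%.

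The difference between the UVB effects of the 2 genotypes equals the genotype difference in UVB embryos minus that in mock embryos, values by which the genes were chosen, so it is described without a test. At 5 h the estimate (Meevs minus wild type) was above 0 for 7 of the 8 genes, with a median of 0.56 on the log2 scale against 0.02 over all genes. Of all genes 46.7% had an estimate below 0. It was 0.94 ± 0.37 for ago3a, 0.89 ± 0.25 for ago1, 0.75 ± 0.29 for lin28b, 0.57 ± 0.33 for ago2 and 0.55 ± 0.26 for ago3b. With single libraries left out these ran, in the same order, from 0.58 to 1.14, 0.61 to 1.05, 0.49 to 1.05, 0.25 to 0.90 and 0.25 to 0.83. The estimates of ago4 (0.27 ± 0.17) and dicer1 (0.26 ± 0.13) were smaller, and that of drosha was -0.12 ± 0.11. At 24 h the 8 estimates lay between -0.24 and 0.47. Of all genes 2.02% had a more positive and 3.09% a more negative effect in Meevs at 5 h by edgeR, and 1.66% and 0.739% at 24 h.

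The difference between the UVB effects at 24 h and at 5 h likewise equals the change with stage in UVB embryos minus that in mock embryos, and is described without a test. In Meevs all 8 estimates were below 0, though those of ago2 and lin28b changed sign with some single libraries left out, with a median of -0.41 against -0.02 over all genes. The lowest was that of ago3b, -1.06 ± 0.29, and dicer1 stood at -0.45 ± 0.13 and drosha at -0.30 ± 0.11. In wild type the median was -0.06, and ago3b was again lowest, at -0.80 ± 0.25. By edgeR 14.3% of all genes were lower and 15.1% higher in Meevs, and 1.62% lower and 3.26% higher in wild type. The 24 h effects come from embryos at a later stage, so time after exposure and stage cannot be told apart.

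Of the 11 measured genes around microRNA processing, 5 rose in wild type at 5 h, where 6.67% of all genes rose. In Meevs 6 rose and 1 fell, where 19.1% rose and 15.3% fell. With only the groups compared, dgcr8, ncbp2 and tarbp2 did not pass in wild type (edgeR adjusted p = 0.111, 0.0663 and 0.0596). In Meevs prkra, which rose, and adarb1b, which fell, did not pass in that setting (edgeR adjusted p = 0.137 and 0.0559). With single libraries left out, ncbp2 in wild type did not pass in 3 of 6 fits. In Meevs prkra did not pass in 5 of 6 and adarb1b in 4 of 6. The helicase gene ddx5, whose product works with Drosha, rose by 0.46 ± 0.08 in wild type (edgeR adjusted p = 0.000147) and by 0.81 ± 0.08 in Meevs (edgeR adjusted p = 3.86e-09). The gene dgcr8 rose by 0.19 ± 0.06 in wild type (edgeR adjusted p = 0.0238) and by 0.46 ± 0.06 in Meevs (edgeR adjusted p = 3.86e-07), a rise larger in Meevs by 0.27 ± 0.08 (edgeR adjusted p = 0.0449). That difference did not pass with any of the 12 libraries left out in turn, at 0.21 to 0.29. The rise in wild type did not pass without mock replicate 1 or 2 or UVB replicate 2 or 3, at 0.17 to 0.19. The Dicer partner gene tarbp2 rose by 0.26 ± 0.07 (edgeR adjusted p = 0.0109) and 0.40 ± 0.07 (edgeR adjusted p = 4.92e-05), the first of which did not pass without mock replicate 3 or UVB replicate 1, at 0.22 to 0.25. At 24 h 1 of the 11 fell in Meevs, srrt, a microRNA processing cofactor gene (-0.22 ± 0.07, edgeR adjusted p = 0.0229). In Meevs at 5 h, 15 of 29 genes of deadenylation and decay rose and 2 fell, and 5 of 20 Argonaute partners rose and 3 fell.

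From 29 to 48 hpf the members changed in different directions, given here without a test because the rule used this change. The level of ago1 was lower at 48 hpf in every group, by a log2 change of -0.92 ± 0.15 in wild type mock, -0.81 ± 0.15 in wild type UVB, -0.78 ± 0.23 in Meevs mock and -1.16 ± 0.20 in Meevs UVB embryos. The libraries of the 2 stages overlapped only in Meevs mock embryos. The level of ago4 was higher at 48 hpf, by 0.83 ± 0.12, 0.69 ± 0.12, 0.80 ± 0.13 and 0.37 ± 0.12 in the same order, and the stages overlapped only in Meevs UVB embryos. In wild type mock embryos ago4 went from 45.1, 37.0 and 44.8 CPM to 79.4, 72.7 and 73.2 CPM. The gene lin28b changed by -0.60 ± 0.17 in wild type mock and -0.17 ± 0.26 in Meevs mock embryos. In mock embryos ago2, ago3b, dicer1 and drosha changed by between -0.26 and -0.02 in both genotypes, and ago3a by 0.34 ± 0.21 and 0.42 ± 0.31. After UVB ago3b changed by -0.83 ± 0.17 in wild type and -1.14 ± 0.19 in Meevs.

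The paralog lin28a was tested, as it was not one of the 8 genes. It is in the Lin28 and let-7 list, drawn up with earlier results known, so its tests are not independent of that choice. It fell from 111 ± 5.07 to 14.9 ± 1.11 CPM in wild type mock embryos between the stages (mean ± SD, n = 3; log2 change -2.91 ± 0.10, edgeR adjusted p = 3.55e-18) and from 65.2 ± 7.94 to 9.38 ± 0.458 CPM in Meevs mock embryos (-2.80 ± 0.11, edgeR adjusted p = 2.87e-17). It was lower in Meevs mock embryos by -0.77 ± 0.09 at 29 hpf (edgeR adjusted p = 3e-07) and -0.66 ± 0.11 at 48 hpf (edgeR adjusted p = 1.58e-05). In UVB embryos the genotype difference of lin28a was -0.59 ± 0.09 at 29 hpf (edgeR adjusted p = 7.24e-06). At 48 hpf it was -0.11 ± 0.10 and did not pass (edgeR adjusted p = 0.383). At 5 h after UVB lin28a was higher than in mock embryos in Meevs (0.32 ± 0.09, edgeR adjusted p = 0.00895). Without mock replicate 1 that rise did not pass (0.23, edgeR adjusted p = 0.0793). The wild type estimate at 5 h did not pass (0.14 ± 0.09, edgeR adjusted p = 0.353). At 24 h after UVB lin28a was higher than in mock embryos, by 0.60 ± 0.10 in wild type (edgeR adjusted p = 0.000554) and 1.16 ± 0.11 in Meevs (edgeR adjusted p = 8.55e-09). The difference between the genotypes in this 24 h effect was 0.56 ± 0.15 (edgeR adjusted p = 0.0427), and it ran from 0.43 to 0.63 with 12 libraries left out in turn. Among these fits it passed only without wild type mock replicate 1, wild type UVB replicate 2 or 3, or Meevs UVB replicate 2. Nor did it pass with only the groups compared or without the 4 libraries that stood apart. Of the 27 genes around Lin28 and let-7, 19 fell and 3 rose with stage in wild type mock embryos, where 33.5% of all genes fell and 30.2% rose, and 18 fell and 3 rose in Meevs mock embryos, against 31.5% and 28.7%. Proliferation markers fell over the same interval in wild type mock embryos, 18 of 18 by edgeR, and neuron markers rose, 13 of 13; their part was not tested.

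The genes whose log2 CPM followed ago1 most closely over the 24 libraries, among 14040 compared, were stag2b (Pearson r = 0.981), a cohesin subunit gene, mpp5a (0.98), pho (0.979), mlec (0.978) and ncoa3 (0.977), a nuclear receptor coactivator gene. For lin28b they were the kinase gene fer (r = 0.973), wwtr1 (0.969), a Hippo pathway coactivator gene, fermt2 (0.969), sp3a (0.969) and gnb4b (0.967). Their log2 differences between genotypes in mock embryos at 29 hpf ranged from -2.03 to -0.61. The shared sign follows from how they were picked, since ago1 and lin28b were themselves lower in Meevs. Among the 8 genes, r over the 24 libraries ran from 0.19 for ago4 and drosha to 0.96 for ago1 and dicer1 and for ago2 and lin28b. These libraries share genotype, stage and library series, which enter r. After subtracting group means, the highest values were 0.87 for the neighbours ago1 and ago3a and 0.86 for ago4 and dicer1, and that of ago1 and dicer1 was 0.57.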

How the data were processed

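The values were read counts for each gene in 24 libraries, deposited by the authors as whole numbers without normalization. Trizol was used for extraction and a directional kit with polyA selection for the libraries, per the labels' protocols. The submitters' processing notes list cutadapt 1.16, STAR 2.7.9a, featureCounts 1.6.3, DESeq2 1.36.0 and GRCz11. Their settings, and whether counting used the strand, were not stated in the sources used. Positions came from the deposited annotation.

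Low genes were removed with filterByExpr by group, counts were scaled with TMM, and edgeR 4.0.16 (R 4.3.3) was used to fit a model of 8 group means to the 24 libraries. Contrasts were tested by the quasi-likelihood F-test with Benjamini-Hochberg adjustment over the 22340 tested genes, and an adjusted p under 0.05 made a call. CPM use TMM-scaled library sizes, and correlations used log2 CPM with a prior count of 2. The script was tested on simulated data. Alternatives were DESeq2 1.42.0, its size factors in edgeR, no filter, only the groups compared, the replicate number as a block, and leaving out libraries.

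The 8 members and the 12 lists were chosen with earlier results of these data known. Differences between UVB effects were planned as tests, but for the members they are given as descriptions, since they follow from the values that chose the members. Of the 213 list entries, 195 were found in the table. Named were the members, up to 4 called genes per list, contrast and direction with the smallest adjusted p, the 5 genes most like ago1 and like lin28b among those averaging 1 log2 CPM or more, and 5 neighbours on each side. No sequences were printed, since no sequence source of the files' build was used here.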

Additional observations from a re-analysis of the deposited data

Results flagged for a closer look

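The differences between UVB effects below belong to lin28a and to genes of the microRNA processing list, none of them among the 8 genes. Each was picked out because a test of the difference itself passed. These genes come from lists drawn up with earlier results of these data known. Between genotypes (Meevs minus wild type), dgcr8 differed by 0.27 ± 0.08 on the log2 scale at 5 h (edgeR adjusted p = 0.0449) and lin28a by 0.56 ± 0.15 at 24 h (edgeR adjusted p = 0.0427). Between times (24 h minus 5 h) in wild type, lin28a differed by 0.46 ± 0.14 (edgeR adjusted p = 0.0484), ddx5 by -0.50 ± 0.11 (edgeR adjusted p = 0.00481) and tarbp2 by -0.36 ± 0.10 (edgeR adjusted p = 0.0307). In Meevs the differences between times were 0.84 ± 0.14 for lin28a, -0.85 ± 0.11 for ddx5, -0.67 ± 0.10 for srrt, -0.54 ± 0.10 for tarbp2, -0.50 ± 0.08 for dgcr8, -0.46 ± 0.10 for adar and -0.41 ± 0.15 for adarb1a, with edgeR adjusted p between 9.77e-07 and 0.0423. Of these 12 differences 7 passed under every alternative: that of ddx5 in wild type and all those in Meevs except adarb1a. With 12 libraries left out in turn, that of dgcr8 between genotypes did not pass in 12 fits, that of lin28a in wild type in 11, and those of lin28a between genotypes, tarbp2 in wild type and adarb1a in 8 each. Time after exposure and stage cannot be told apart in the differences between times.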

How the results depend on the processing

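With 3 libraries a group, the calls on single members depended on which libraries entered. In Meevs at 5 h, 2 members in place of 4 passed with only the groups compared or without the 4 libraries that stood apart, an alternative chosen after seeing the data. DESeq2 called 6 in place of 4, and 7815 of all genes in place of 7675. With single libraries left out, the members called ranged from 0 to 1 in wild type at 5 h, 2 to 6 in Meevs at 5 h and 1 to 2 in Meevs at 24 h. Those fits called 6122 to 7027 genes in Meevs at 5 h, against 7675 with all libraries. At 24 h in Meevs they called 3439 to 4394, against 4552. Genes called in wild type at 5 h, 2842, were 1808 with only the groups compared, 4285 without the 4 libraries and 1385 to 3425 with single libraries left out. In wild type at 24 h the 501 were 1193 without the 4 libraries and 273 to 748 with single ones left out, and for the difference between the UVB effects at 24 h and 5 h in wild type the 1092 were 675 to 1434. Size factors of DESeq2 moved the split in wild type at 24 h from 388 higher and 113 lower to 309 and 153, and DESeq2 gave 374 and 235. For that difference in wild type, DESeq2 gave 809 and 704 against 729 and 363. In Meevs at 24 h the split was 2578 higher and 1974 lower. It was 2353 and 2395 with these size factors, and 2385 and 2485 by DESeq2. For the difference between times in Meevs, 3365 and 3205 became 3165 and 3564 with these size factors. The cause of these changes was not tested.

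The labels do not say that a replicate number marks a shared clutch, and same-numbered libraries did not deviate together, with correlations of -0.117 to 0.136 over 36 pairs. With a replicate block, 1 member was called in wild type at 5 h, 4 in Meevs at 5 h and 1 in Meevs at 24 h, as without it. No called UVB effect and no genotype difference of the 8 genes changed sign under these alternatives. Changes from 29 to 48 hpf near 0 did, for ago2, ago3b, dicer1, drosha and lin28b in mock embryos and ago3a in Meevs UVB embryos. The lowest libraries of ago3a and lin28b held 12 and 16 counts, which limits their precision.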
